A study of Nannochloropsis oceanica with 44 samples.

Results

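Cells of the marine alga Nannochloropsis oceanica, strain CCMP1779, were compared between 12 h and 24 h of nitrogen deprivation. The wild-type cultures grew shaken in F/2 medium under continuous light, and at the start of deprivation the cells were washed and resuspended in medium without nitrogen. All cells of both groups had therefore been without nitrogen, for 12 h in the group written 12 h N- and for 24 h in the group written 24 h N-. Each group has 4 of the 44 RNA sequencing libraries of the series, 8 in all, from 2 biological replicates per time. The other groups used below are 6 h, 48 h and 72 h N-, and cells deprived for 72 h that were then given nitrogen again for 6, 12, 24, 48 or 72 h (NR). The deposited tables hold 1 value per gene and time point on a log2 scale, joined over the libraries of a group, for the 2489 genes that passed the authors' test of resupply against deprivation. All 2489 genes of the 4 tables, 1 table per deposited cluster, enter the comparison. A positive difference means higher at 24 h N- than at 12 h N-, and a gene is called higher or lower past a log2 difference of 1, or 2-fold.

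Nitrogen is a building block of proteins, nucleic acids and chlorophyll. Microalgae that run out of it slow and then stop dividing, reduce their photosynthetic apparatus and divert fixed carbon into storage, in Nannochloropsis mainly as triacylglycerol in lipid droplets. The genes carry identifiers of a gene annotation pipeline and no names: 0 of the 2489 identifiers occur in the reference table used here, which holds 160 genes of the strain IMET1. Genes of nitrogen uptake, photosynthesis or lipid synthesis could therefore not be picked out, and the state of the cells could not be checked against known markers of deprivation. Identifiers are given for the genes at both ends of each cluster only. With 1 joined value per group, no difference has an error or a p-value, so none can be set against the spread between cultures, and read depth per library is unknown.

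Between 12 h and 24 h N- more genes of the tables were lower than higher in the values as deposited, and the steps were small. Of 2489 genes, 227 (9.12%) were more than 2-fold lower, 48 (1.93%) were more than 2-fold higher, and together 275 (11.0%) passed the limit. At a limit of 1.5-fold, 803 genes were lower and 169 higher, which leaves 1517 genes (60.9%) within 1.5-fold. Past 4-fold there were 5 lower and 8 higher genes. The median difference was -0.25, with quartiles over genes of -0.71 and 0.21, and the extremes were -3.29 and 3.00.

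The balance between higher and lower genes depended on the scaling of the 2 columns. The median value over the tables was 9.70 at 12 h N- and 9.46 at 24 h N-, a shift of -0.24. With each column centred on its median, 96 genes (3.86%) were higher and 60 (2.41%) lower, 156 (6.27%) in all, so the larger side turned. Which scale is right cannot be told from genes that were selected for responding. Many lower genes also lay close to the limit: 103 of the 227 had passed it by at most 0.1, and another 100 genes fell short of it by less than 0.1. Among the higher genes 10 of 48 had passed it by at most 0.1.

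The 4 deposited clusters took different directions. In each of them the larger of the 2 counts, higher or lower, was on the same side before and after centring. The clusters were formed by the authors from the 10 time points, these 2 included, so the counts describe them and are no test. Cluster 4 was the most shifted. It had 97 of 418 genes (23.2%) lower and 0 higher, 414 had a negative difference, and the median was -0.78 (quartiles -0.98 and -0.59), which is 1.72-fold lower. Cluster 3 followed, at a median of -0.58 (quartiles -0.84 and -0.26), where the limit was passed downward by 119 of 872 genes (13.6%) and upward by 0.

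Clusters 1 and 2 held all of the higher genes in the values as deposited. Cluster 1 had 28 higher genes of 798 (3.51%) and 1 lower one, 699 had a positive difference, and the median was 0.28 (quartiles 0.12 and 0.49). Cluster 2 stayed nearest to its 12 h level in the median, at -0.14 (quartiles -0.40 and 0.17), yet it had members past the limit on both sides, 20 higher and 10 lower among 401 genes, and it held 5 of the 8 genes that were more than 4-fold higher. Its differences had an SD over genes of 0.58, against 0.36 in clusters 1 and 4 and 0.42 in cluster 3. After centring, 70 genes of cluster 1 were higher and 1 lower, 25 of cluster 2 were higher and 2 lower, 27 of cluster 3 were lower and 1 higher, and 30 of cluster 4 were lower and 0 higher. The median of cluster 2 then turned to 0.09, and those of clusters 1, 3 and 4 became 0.51, -0.35 and -0.55.

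**Figure D1:**
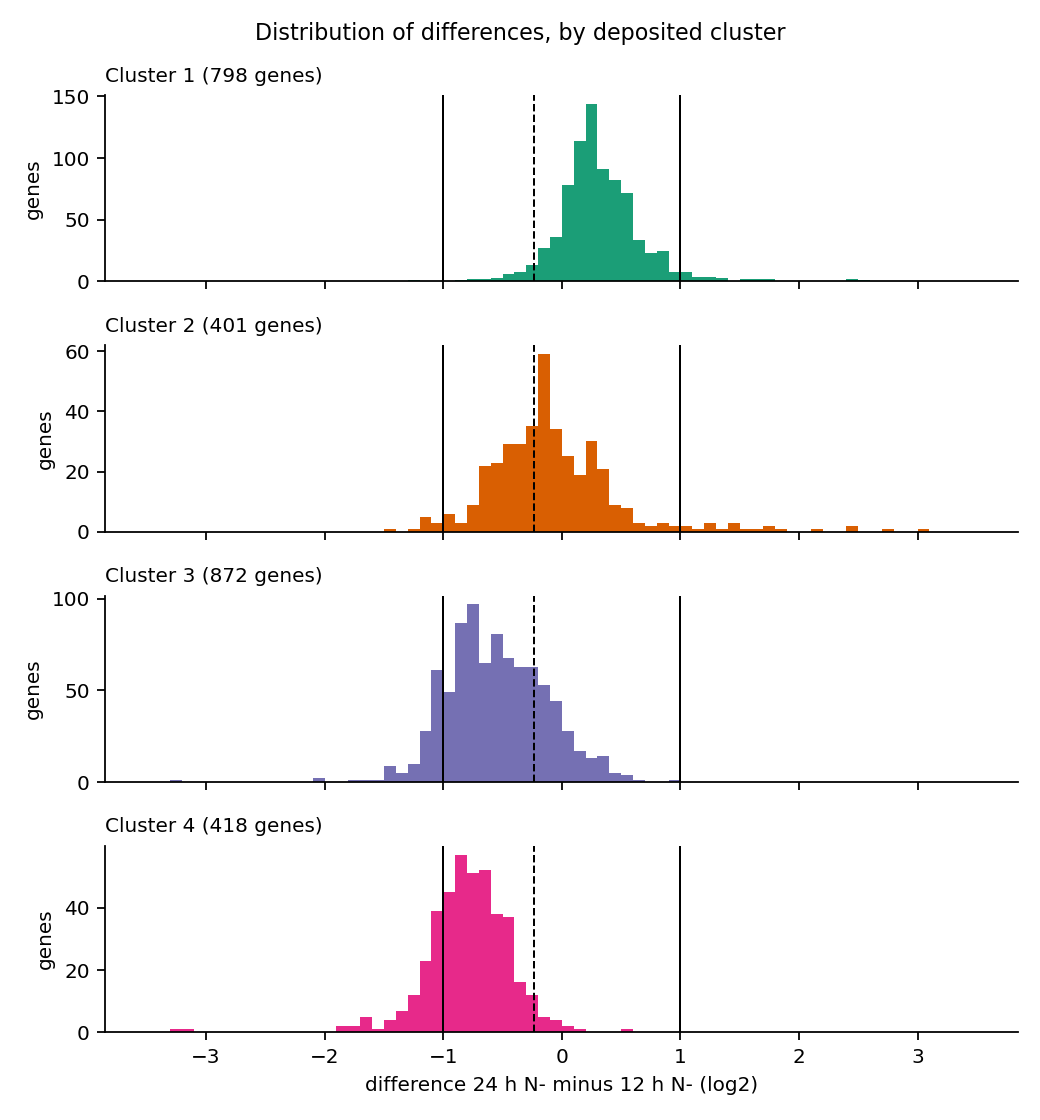
Number of genes (vertical axis) by the log2 difference of 24 h N- minus 12 h N- (horizontal axis, bins of 0.1), 1 panel per deposited cluster. Solid lines mark -1 and 1 and the dashed line marks the shift of the column medians, -0.24; cluster 1 lies mostly right of 0, clusters 3 and 4 mostly left of it, and cluster 2 has a tail of higher genes that reaches 3.00.

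**Figure D2:**
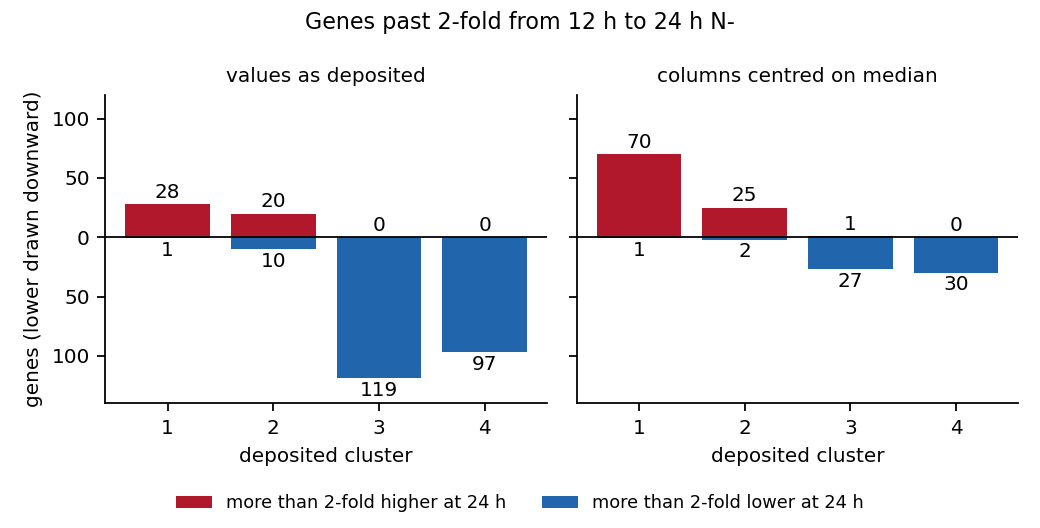
Number of genes past 2-fold by deposited cluster, higher genes drawn upward and lower genes downward, for the values as deposited (left) and with each column centred on its median (right). The lower genes of clusters 3 and 4 number 119 and 97 as deposited and 27 and 30 after centring, while the higher genes of cluster 1 go from 28 to 70.

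In the values as deposited, the comparison falls at the top of the deprivation course for many genes. Among the 5 times of deprivation, 12 h N- had the highest value for 1245 of the 2489 genes (50.0%) and 24 h N- for 253 (10.2%). In cluster 3 the highest value was at 12 h N- for 752 of 872 genes and in cluster 4 for 314 of 418. Cluster 1 differed: 12 h N- was its highest time for 22 of 798 genes and its lowest for 264. These counts carry the shift between columns, whose median was 9.70 at 12 h N- and 9.46 at 24 h N-. They were not repeated on centred columns. The step that came before, from 6 h to 12 h N-, had taken the median of cluster 3 up by 0.57 and that of cluster 4 up by 0.21, or by 0.37 and 0.01 after centring. Between 12 h and 24 h N- both medians were lower on either scale.

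Set beside the neighbouring steps of deprivation, the interval from 12 h to 24 h was intermediate in the number of genes past 2-fold. From 6 h to 12 h N- 83 genes (3.33%) passed, from 24 h to 48 h N- 519 (20.9%) and from 48 h to 72 h N- 252 (10.1%). The intervals last 6, 24 and 24 h against 12 h here, and neighbouring steps share a column. After centring the counts were 78, 206 and 55 beside 156. In the values as deposited higher genes were most frequent in the 2 early steps, with 42 from 6 h to 12 h and 48 from 12 h to 24 h N-, against 2 and 5 in the later ones. After centring they numbered 12, 96, 38 and 13 in the same order, so the first step was then the one with the fewest. The median absolute difference was 0.47 here, 0.31 in the step before and 0.41 and 0.27 in the steps after. After centring it was 0.46 here, 0.25 before and 0.50 and 0.35 after, so the step from 24 h to 48 h N- was then the largest.

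The 5 genes that were more than 4-fold lower in the values as deposited came from clusters 3 and 4. After centring, 3 genes were more than 4-fold lower and 9 more than 4-fold higher. The largest difference belonged to maker-nanno_1060-augustus-gene-0.15 of cluster 3, at -3.29 or 9.79-fold. Its values were 7.25, 8.53, 5.23, 4.07 and 3.63 at the 5 times of deprivation, in order, and 3.67, 4.20, 9.20, 8.38 and 7.67 at the 5 times of resupply. It was thus highest in deprivation at 12 h, and its highest value of all came at 24 h NR.

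Second came a cluster 4 gene, augustus_masked-nanno_1644-abinit-gene-0.9, which differed by -3.25 (9.51-fold). It read 16.57, 14.28, 11.03, 9.79 and 9.47 through deprivation and 9.45, 14.02, 15.30, 17.69 and 16.17 through resupply. Unlike the other 4 it was already lower at 12 h than at 6 h N-. Its mean over the 10 values, 13.4, lay far above the means of 6.16 to 6.39 of the 3 other lower genes named by rule in clusters 3 and 4.

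A pair from contig 445 followed. The cluster 4 gene augustus_masked-nanno_445-abinit-gene-0.2 stood at 8.46 at 12 h and at 5.32 at 24 h N-, a difference of -3.14, after 7.55 at 6 h and before 3.59 and 3.39 at 48 and 72 h. The cluster 3 gene snap_masked-nanno_445-abinit-gene-0.9 went from 8.13 to 6.08, a difference of -2.05, after 7.48 and before 4.22 and 3.55. Through NR they read 3.94, 3.76, 8.19, 8.77 and 8.59, and 4.71, 3.97, 8.39, 8.70 and 8.67. Over the 10 time points the Pearson correlation of the pair was 0.99, and the models may or may not be separate transcripts. The fifth gene, augustus_masked-nanno_1983-abinit-gene-0.0 of cluster 3, chosen after its values were seen to complete the 5, went from 10.49 to 8.48, a difference of -2.01.

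The largest differences upward were those of cluster 2 genes. The gene augustus_masked-nanno_748-abinit-gene-0.0 was 3.00 higher at 24 h (8.01-fold), with 4.59, 5.44, 8.44, 9.12 and 8.87 through deprivation. Through resupply it read 4.71, 5.21, 4.46, 4.20 and 4.58, so its high values all lay at 24 h N- and later in deprivation. The gene maker-nanno_2072-augustus-gene-0.6 was 2.79 higher (6.93-fold), with 4.70, 4.35, 7.15, 7.65 and 7.68 through deprivation and 4.47, 4.32, 3.64, 4.65 and 6.88 through resupply. It differs from the first in its last value, which was back near the level of 24 h N-.

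In cluster 1 the genes furthest up were augustus_masked-nanno_646-abinit-gene-0.0 and augustus_masked-nanno_1130-abinit-gene-0.0. The first was 2.52 higher at 24 h (5.75-fold), with 3.62, 3.73, 6.25, 6.28 and 4.79 in deprivation and 9.97, 10.45, 5.32, 6.32 and 5.03 in resupply. The second was 2.43 higher (5.39-fold), with 4.73, 5.34, 7.77, 7.81 and 7.03 and then 7.26, 6.56, 8.49, 4.63 and 4.47. The first was thus highest early in resupply, at 12 h NR, and the second later, at 24 h NR.

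The other 4 genes more than 4-fold higher were chosen after their values were seen, to complete the 8. In cluster 2, augustus_masked-nanno_811-abinit-gene-0.0 went from 9.58 at 12 h to 12.03 at 24 h N- (2.44), augustus_masked-nanno_2070-abinit-gene-0.1 from 3.09 to 5.51 (2.42) and snap_masked-nanno_955-abinit-gene-0.22 from 6.57 to 8.69 (2.12). In cluster 1, maker-nanno_6404-augustus-gene-0.4 went from 7.28 to 9.69 (2.40). The 8 genes thus stood between 3.09 and 9.58 at 12 h N-.

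In cluster 1, 1 gene of 798 passed the limit downward. This gene, maker-nanno_758-snap-gene-0.10, stood at 11.15, 8.55, 7.30, 7.02 and 7.28 in deprivation and 9.79, 12.83, 12.39, 13.47 and 12.16 in resupply, with a difference of -1.25 from 12 h to 24 h N-. Behind it came augustus_masked-nanno_1064-abinit-gene-0.3, which did not pass the limit, at 13.12 and 12.27 for 12 h and 24 h N- (-0.85). Both were highest in deprivation at 6 h, with 14.48 for the second.

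In cluster 2 the genes furthest down were augustus_masked-nanno_201-abinit-gene-0.9, at 6.92 and 5.48 for 12 h and 24 h N- (-1.44), and maker-nanno_1985-snap-gene-0.13, at 8.90 and 7.63 (-1.26). Both then changed little to 72 h N-, where they stood at 5.68 and 7.80.

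No gene of clusters 3 and 4 passed the limit upward in the values as deposited. The nearest were 2 genes on contig 6523 in cluster 3. The gene augustus_masked-nanno_6523-abinit-gene-0.1 had 9.59, 10.03, 10.98, 7.67 and 6.70 in deprivation (0.95 from 12 h to 24 h, and 1.19 after centring), and augustus_masked-nanno_6523-abinit-gene-0.0 had 8.58, 9.13, 9.80, 6.76 and 5.77 (0.67, and 0.91 after centring). Both were highest in deprivation at 24 h and not at 12 h, and highest of all at 24 h NR with 12.07 and 11.21. Their profiles had a Pearson correlation of 0.998 over the 10 time points, at a gap of 0.72 to 1.18 between them. In cluster 4 the highest differences were 0.51 in augustus_masked-nanno_5471-abinit-gene-0.0 (5.14 and 5.65) and 0.19 in snap_masked-nanno_7294-abinit-gene-0.6 (5.70 and 5.89).

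**Figure D3:**
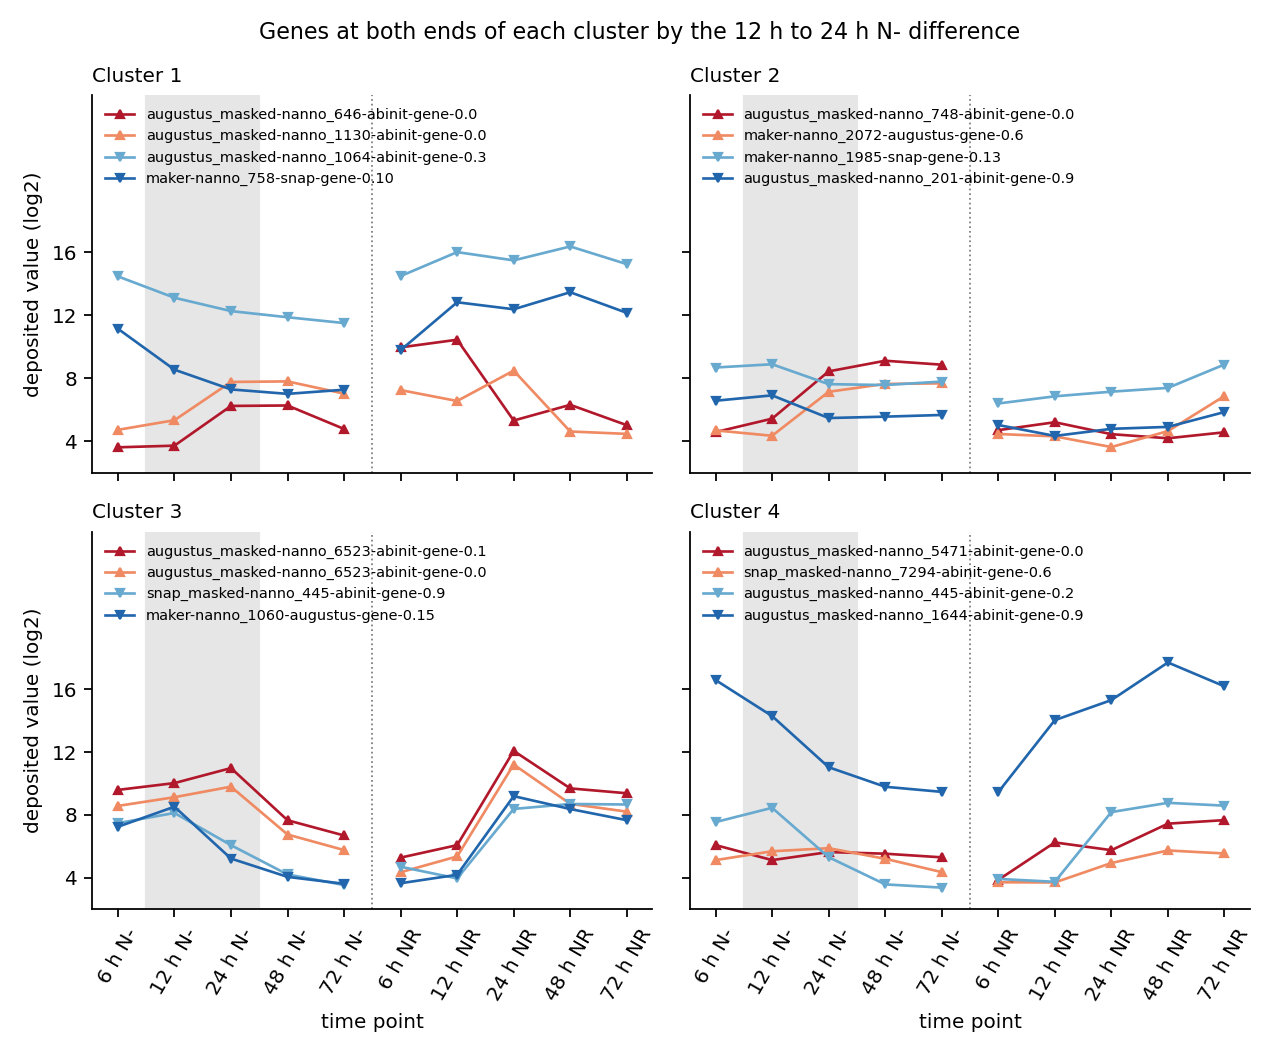
Deposited log2 values (vertical axis) at the 10 time points (horizontal axis) for the 2 genes with the highest (red tones) and the 2 with the lowest (blue tones) difference from 12 h to 24 h N- in each cluster. The grey band covers 12 h and 24 h N-, and the dotted line parts deprivation from resupply; the steep steps inside the band are those of augustus_masked-nanno_1644-abinit-gene-0.9 (14.28 to 11.03) and the lowered genes of clusters 3 and 4, and the raised genes of clusters 1 and 2.

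The called genes as groups had different courses after 24 h N-. The 227 lower genes stood at a median of 9.42 at 12 h, 8.24 at 24 h, 7.20 at 48 h and 6.69 at 72 h N-, and the median difference of a gene from its own 12 h value was -1.12, -2.32 and -2.98 at the last 3 times. The 48 higher genes stood at 7.80, 9.31, 9.41 and 9.77, with median differences of 1.33, 1.73 and 1.84 from their 12 h value. After centring the median differences were -0.88, -1.62 and -1.95 for the lower genes and 1.57, 2.43 and 2.87 for the higher ones. The median difference of the higher genes thus went on upward to 72 h N- on both scales, and further after centring. The genes were chosen for a large step between 12 h and 24 h, which by itself favours a smaller step afterwards.

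The lower genes took the later direction of their clusters, which were formed on these columns, though not with the same step sizes. In the 10 lower genes of cluster 2 the median difference from 12 h N- was -1.13 at 24 h, -1.13 at 48 h and -1.04 at 72 h N-. In cluster 3 it went from -1.10 over -2.31 to -3.09, and in cluster 4 from -1.13 over -2.40 to -2.96. Over all members, the medians of the steps from 24 h to 48 h and from 48 h to 72 h N- were 0.0052 and 0.058 in cluster 2, -0.80 and -0.73 in cluster 3, and -1.02 and -0.36 in cluster 4. After centring, the lower genes of cluster 2 went from -0.89 over -0.43 to -0.0099, back to their 12 h level. Those of cluster 3 went from -0.86 over -1.61 to -2.06, and those of cluster 4 from -0.89 over -1.69 to -1.93. The centred step medians over all members were 0.47 and 0.39, -0.34 and -0.40, and -0.55 and -0.027 in clusters 2, 3 and 4. Among the lower genes alone, these 2 steps as deposited had medians of 0.10 and 0.081 in cluster 2. In cluster 3 they were -1.17 and -0.67, and in cluster 4 -1.17 and -0.55. The first of these steps starts from the 24 h N- column by which the genes were chosen.

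**Figure D4:**
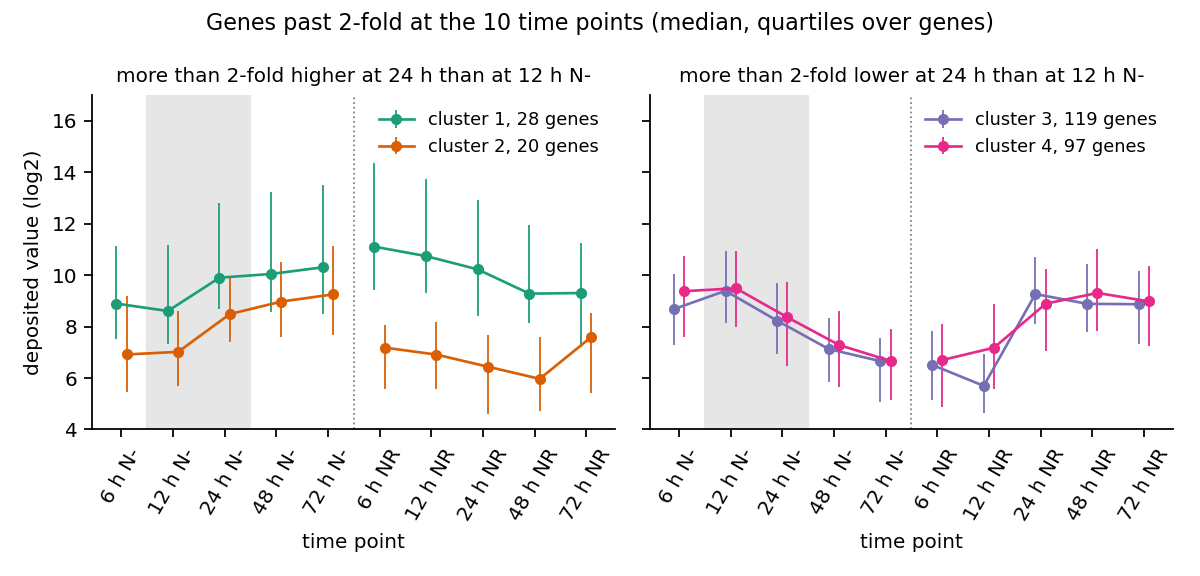
Median (points) and quartiles over genes (bars) of the deposited log2 values at the 10 time points, for genes more than 2-fold higher (left, clusters 1 and 2) and more than 2-fold lower (right, clusters 3 and 4) at 24 h than at 12 h N-. The grey band covers the compared times; the lower genes go on down to 72 h N-, with medians of 6.65 and 6.66 in clusters 3 and 4, and the higher genes of the 2 clusters part at 6 h NR, at 11.10 in cluster 1 and 7.18 in cluster 2.

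Later steps that use neither of the compared columns can be read for the same genes. From 48 h to 72 h N- 34 of the 227 lower genes (15.0%) were lower again and 0 were higher, where 9.92% of all genes were lower. These 34 are 13.8% of the 247 genes lowered in that step. By cluster they stood against different backgrounds: 24 of 119 (20.2%) in cluster 3, where 24.8% of all members were lower, and 10 of 97 (10.3%) in cluster 4, where 6.46% were. After centring, 4 of the 60 lower genes (6.67%) were lower again, where 42 of all genes (1.69%) were. Of the 48 higher genes 2 were higher and 2 lower in that step, against backgrounds of 0.201% and 9.92%.

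The same hours after resupply, from 12 h to 24 h NR, went the opposite way for most of the lower genes. Of the 227, 188 (82.8%) were more than 2-fold higher and 0 lower, beside 49.8% and 10.2% of all genes, and the 188 are 15.2% of the 1240 genes raised in that step. In cluster 3 all 119 were higher, as were all 872 members of the cluster. In cluster 4, 68 of the 97 (70.1%) were higher, where 49.5% of all members were. Of the 48 higher genes 20 (41.7%) were lower, which is 7.84% of the 255 genes lowered in that step, and 3 were higher.

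These counts moved with the scaling. With columns centred, 24 of the 60 lower genes were higher from 12 h to 24 h NR and 8 were lower. Of the 96 higher genes 90 were lower, where 28.6% of all genes were higher and 46.8% lower. Of these 90, 67 were of cluster 1 and 23 of cluster 2. Over all members of these 2 clusters the centred median of that step was itself negative, at -2.37 and -1.01. Of the 97 genes of cluster 4 that were lower as deposited, 6 were then higher and 22 lower in that step. The tables hold only genes called for resupply against deprivation or its change with time. Whether that choice favours opposite courses was not tested.

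At 72 h NR the lower genes stood again near their level at 6 h N-, and below that at 12 h N-. Their median was 8.97, beside 9.04 at 6 h N-, 9.42 at 12 h N- and 6.69 at 72 h N-. The median difference of a gene from its own 12 h N- value was -0.71, or -0.60 after centring. From its own 6 h N- value it was -0.14, or -0.22 after centring. Against 72 h N- 210 of the 227 (92.5%) were higher and 0 lower, where 47.2% of all genes were higher. Most of the 227 were of 2 clusters, with 112 of 119 higher in cluster 3 and 94 of 97 in cluster 4. With columns centred, 150 of the 227 were higher and 0 lower, where 27.3% of all genes were higher. Of the 48 higher genes 33 were lower at 72 h NR than at 72 h N- and 2 higher, where 7.87% of all genes were lower. Shares over all members of each cluster were not computed for this comparison. What goes with the cluster and what with the called genes cannot be told apart here.

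In the first 6 h of resupply the higher genes split by cluster, as the clusters themselves did. Over all genes 28.8% were higher and 22.7% lower in that step. Of the 28 in cluster 1, 13 (46.4%) were higher still at 6 h NR than at 72 h N- and 0 lower, beside 84.3% higher among all members of that cluster. Of the 20 in cluster 2, 17 (85.0%) were lower and 0 higher, beside 91.5% lower among all members. The members of cluster 1 raised by 24 h N- thus had a smaller share past 2-fold at 6 h NR than the cluster as a whole, a difference that was not tested.

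The number of lower genes fell with the level of the gene. Genes were split into 4 classes of equal size by the mean of their 10 values. Whether the values are corrected for gene length is not given in the sources used here. From the lowest to the highest class 95, 69, 46 and 17 genes were lower, of 622 or 623 each, and 15, 11, 11 and 11 were higher. The median difference went from -0.58 over -0.39 and -0.18 to 0.11. Part of this goes with cluster membership, since 388 of the 622 genes in the highest class belong to cluster 1 and 70 of the 623 in the lowest.

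Within clusters the dependence on level was uneven. In cluster 3 the median was -0.71 in the lowest and -0.39 in the highest class, with 18.7% and 6.72% of the genes lower. In cluster 4 it was -0.79 and -0.73, with 24.5% and 16.7% lower. In cluster 1 the median went from 0.48 to 0.24. The part of counting error in this was not tested.

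**Figure D5:**
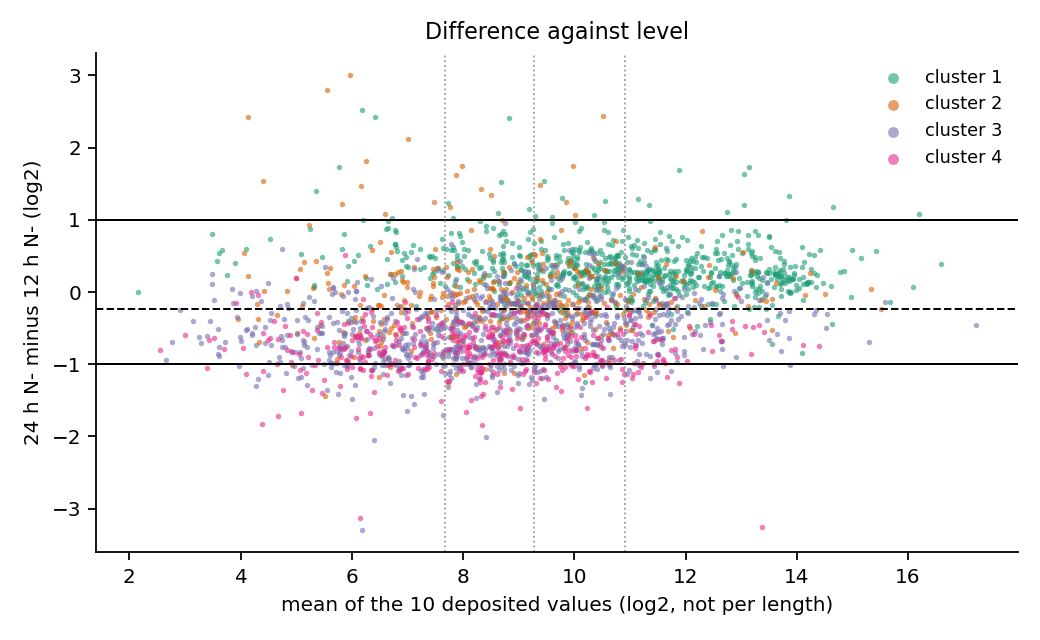
Difference of 24 h N- minus 12 h N- (log2, vertical axis) against the mean of the 10 deposited values of a gene (log2, horizontal axis), 1 point per gene coloured by cluster. The axis label reads not per length, but whether the values are corrected for gene length is not given in the sources used here. Solid lines mark -1 and 1, the dashed line the shift of -0.24, and dotted lines the borders of the 4 level classes; genes below -1 number 95 in the lowest class and 17 in the highest.

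The kind of gene model also went with the difference. The identifiers name the gene finder, augustus or snap, and whether evidence backs a model (those that begin with maker) or it is an ab initio prediction. Evidence-based augustus models had a median difference of -0.04 (602 genes, 5.48% lower), evidence-based snap models -0.17 (264 genes, 9.09% lower), ab initio augustus models -0.25 (888 genes, 8.67% lower) and ab initio snap models -0.47 (735 genes, 12.7% lower). In the same order 39.4%, 48.9%, 52.4% and 62.4% of the models lay in clusters 3 and 4, and the median of the mean level was 10.56, 9.91, 9.31 and 7.95. Within cluster 1 the 4 medians lay between 0.27 and 0.30. Within cluster 4 they were -0.68, -0.82, -0.74 and -0.85, so the 2 kinds of snap model were the lower ones there.

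Some called genes shared a contig. The 2489 genes lie on 1215 contigs, of which 732 hold 1 gene of the tables. The 227 lower genes were spread over 189 contigs, and 29 contigs held more than 1 of them. Of these, 8 contigs held 3 or more, picked here for holding them: 25 of their 63 genes in the tables were lower, where 9.12% of all genes were, and the share ran from 3 of 18 on contig 913 to 3 of 3 on contig 1985. On contig 373, 4 of 6 genes were lower, with differences between -1.42 and -0.65 over the 6. On contig 1985 all 3 genes were lower, between -1.26 and -1.12, and on contig 445 3 of 4 were, between -3.14 and -0.86 over the 4. The 48 higher genes lay on 43 contigs, with 2 on each of 5.

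A higher and a lower gene occurred together on 5 contigs. On contig 758 the lower gene of cluster 1 lay beside maker-nanno_758-snap-gene-0.12, which went from 12.78 to 14.11 (1.33), and snap_masked-nanno_758-abinit-gene-0.5, which went from 10.57 to 12.25 (1.69). These last 2, chosen after their values were seen, ran in parallel over the 10 time points, 1.85 to 2.21 apart, whereas the lower gene went the other way through much of the course (Pearson correlation of -0.34 with the first). How far apart the genes of a contig lie was not used here, and neighbouring models may or may not be separate transcripts.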

How the data were processed

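Reads (single-end, 50 bases) were trimmed with Trimmomatic 0.32, mapped to the genome of CCMP1779 with STAR 2.3.0e, keeping unique hits only, and their number per gene was taken with HTSeq 0.6.1, as the labels' protocols state. Reads shared by near-identical genes are thereby left out. Per the labels' protocols, the authors chose genes with DESeq2 (log2 fold change over 1, adjusted p under 0.01) and split them into 4 clusters by k-means. The deposited log2 values were used as the authors made them. No header names the scale, which was inferred from the values (1.46 to 19.5). For the scaling and transformation of libraries, and the joining of those of a time point, the method is not given in the sources used here. The other deposited number is a row index and was not used.

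Differences of 24 h N- minus 12 h N- were computed with Python 3.11.15, numpy 2.4.6 and pandas 2.3.3, and figures were drawn with matplotlib 3.10.9. The code was tested on simulated shifts. No test across samples was possible, since no column holds a single library. The alternatives were centred columns, an equal summed linear level, leaving out the lowest of 4 level classes, and 16 added on the linear scale. Genes named are the 2 with the highest and the 2 with the lowest difference over all genes and in each cluster, plus those said to be chosen later. Lists of nitrogen, photosynthesis and lipid genes could not be applied, as the identifiers are not paired with names. The comparison, lists and named genes were chosen with earlier results of these data known.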

Additional observations from a re-analysis of the deposited data

Results flagged for a closer look

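The step from 12 h to 24 h had opposite directions in deprivation and after resupply for part of the genes. There were 188 genes more than 2-fold lower in N- and more than 2-fold higher in NR, 119 of cluster 3, 68 of cluster 4 and 1 of cluster 2. There were 20 genes higher in N- and lower in NR, 12 of cluster 1 and 8 of cluster 2. Over all genes 49.8% were higher and 10.2% lower from 12 h to 24 h NR, and all 872 members of cluster 3 were higher. The difference between the courses was not tested. With columns centred on their medians the numbers were 24 and 90. Over all genes the NR shares were then 28.6% higher and 46.8% lower. Of the 24 genes, 23 were of cluster 3 and 1 of cluster 4. Of the 90 genes, 67 were of cluster 1 and 23 of cluster 2, whose centred medians in NR over all members were -2.37 and -1.01.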

How the results depend on the processing

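With columns centred on their median, 156 genes passed 2-fold (96 higher, 60 lower); 70 of cluster 1 were higher, 2 of cluster 2 lower, 1 of cluster 3 higher and 27 lower, and 30 of cluster 4 lower. The median difference became -0.018, and those of clusters 1 to 4 became 0.51, 0.094, -0.35 and -0.55. With an equal summed linear level, 168 genes passed, 103 of them lower; 5 of cluster 2 were lower, 1 of cluster 3 higher and 49 lower, and 48 of cluster 4 lower. The medians were then -0.12 over all genes and 0.41, -0.011, -0.45 and -0.65 by cluster. Without the lowest of the 4 level classes, 165 genes passed, 132 of them lower. Cluster 2 had 10 higher and 6 lower, cluster 3 had 65 lower and cluster 4 had 60 lower. The median over all remaining genes was -0.13, and fewer genes were counted by construction. With 16 added on the linear scale, all 16 counts and medians stayed within 1.5 times or 0.1 of those reported. The differences of single genes held less well: among the 16 genes named by rule, 9 moved by more than 0.1 and 7 did not. All 9 became smaller in size. For the cluster 1 gene furthest up, 2.52 as deposited became 1.65. For the cluster 3 member of the contig 445 pair, -2.05 became -1.82. Both were then no longer past 4-fold. Of the 16 genes named by rule, 11 were past 2-fold as deposited, and all 11 were under centring, the equal sum and the added 16. Leaving out the lowest class left 6 of the 16, of which 3 were past 2-fold as before. No sign changed in these. No paired analysis was possible because each time point has 1 joined column and no library its own, and for the same reason no replicate could be left out. Read depth is unknown, so what it limits could not be stated.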
